A study of Mus musculus with 9 samples.

Results

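The genes of intestinal sugar digestion and uptake were examined in the small intestine of irradiated mice. They were 8 genes of the 19360 in the deposited table, taken by symbol: the hydrolase genes Lct, Sis, Mgam and Treh, the transporter genes Slc5a1, Slc2a5 and Slc2a2, and Khk. All 8 were found, and 7 passed the filter of a mean scaled count of at least 10 that was set for testing, Lct being the exception. Poly(A) RNA was sequenced from small sections of small intestine of 9 wild-type Balb/c mice, 3 per group, each killed 12 hours after total body irradiation (TBI) at 9 Gy. One group had TBI alone. The 3pRNA + TBI group was given 3pRNA, a triphosphate RNA that activates the cytosolic sensor RIG-I, intravenously 24 hours before TBI. The 3pRNA + anti-IFNAR1 + TBI group (here the blockade group) had the same 3pRNA and, 48 hours before TBI, an antibody that blocks the receptor of type I interferon. Every mouse was irradiated, so no value describes an unirradiated gut, and no group with carrier alone or a control antibody was among the samples, so that carrier and 3pRNA cannot be told apart, nor can an antibody as such and blockade. The labels do not say which stretch of the small intestine was taken.

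Dietary sugars are cut and taken up by enterocytes, the absorptive cells that cover the villi. Sucrase-isomaltase (Sis), maltase-glucoamylase (Mgam), lactase (Lct) and trehalase (Treh) are anchored in the brush border and release monosaccharides from sucrose, starch fragments, lactose and trehalose. SGLT1 (Slc5a1) carries glucose and galactose into the cell together with sodium, GLUT5 (Slc2a5) carries fructose, and GLUT2 (Slc2a2) carries hexoses across the basolateral membrane. Ketohexokinase (Khk) makes the first phosphorylation of fructose. In mice, lactase falls after weaning and is made mainly in the jejunum.

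The start regions of 4 genes are printed, because these genes mark both ends of the range of levels described next: Sis, Mgam and Slc5a1 at the top and Lct at the bottom. RefSeq promoters on build GRCm38.p6, from 250 bases before to 50 after the start of the gene, matched 8 of 8 genes. The reads had been aligned to mm9, so the coordinates belong to the sequences and not to the counts. Capitals mark matches, on either strand, to the searched motifs. The windows are chr3:72967814-72968113 on the minus strand for Sis, chr6:40628581-40628880 on the plus strand for Mgam, chr5:33103969-33104268 on the plus strand for Slc5a1 and chr1:128328269-128328568 on the minus strand for Lct.
Sis: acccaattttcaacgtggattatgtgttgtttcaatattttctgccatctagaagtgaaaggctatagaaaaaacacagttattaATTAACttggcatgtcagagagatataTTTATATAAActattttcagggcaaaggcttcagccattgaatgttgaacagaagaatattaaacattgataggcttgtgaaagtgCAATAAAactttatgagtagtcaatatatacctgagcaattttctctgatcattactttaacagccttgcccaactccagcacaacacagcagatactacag
Mgam: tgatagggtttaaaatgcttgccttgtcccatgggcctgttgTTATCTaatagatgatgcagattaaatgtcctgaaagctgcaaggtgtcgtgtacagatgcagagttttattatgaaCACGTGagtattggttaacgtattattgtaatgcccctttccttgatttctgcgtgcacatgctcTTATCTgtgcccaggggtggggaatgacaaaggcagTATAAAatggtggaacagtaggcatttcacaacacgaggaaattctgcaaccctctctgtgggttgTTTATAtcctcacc
Slc5a1: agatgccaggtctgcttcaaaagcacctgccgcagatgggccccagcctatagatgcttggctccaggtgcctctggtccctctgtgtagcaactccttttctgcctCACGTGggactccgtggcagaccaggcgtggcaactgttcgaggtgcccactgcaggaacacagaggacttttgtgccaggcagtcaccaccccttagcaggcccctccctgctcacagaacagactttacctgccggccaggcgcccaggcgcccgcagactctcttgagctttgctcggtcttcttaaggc
Lct: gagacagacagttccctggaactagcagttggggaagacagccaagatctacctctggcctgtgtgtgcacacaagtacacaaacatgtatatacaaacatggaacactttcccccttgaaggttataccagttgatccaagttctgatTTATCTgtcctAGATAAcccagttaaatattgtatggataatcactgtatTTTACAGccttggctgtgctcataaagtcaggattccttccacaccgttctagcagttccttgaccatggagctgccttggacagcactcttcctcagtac

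The motifs searched were the HNF1 half-site GTTAAT, the CDX letters TTTATNG and TTTACNG, the GATA letters AGATAA, the HNF4-like repeat CAAAGTCCA, the E-box CACGTG, the interferon response core GAAANNGAA and the TATA box TATAAA. HNF1, CDX and GATA proteins are factors of enterocyte genes, and the sucrase-isomaltase promoter is a textbook target of CDX2 and HNF1. The Sis window held GTTAAT 165 bases before the start, TTTATNG 52 bases before it, and a pair of overlapping TATAAA matches 138 and 134 bases before it. Among all 32851 promoters of the table, 7.10% held GTTAAT, 10.9% TTTATNG and 13.6% TATAAA. The Mgam window held AGATAA 208 and 66 bases before the start, CACGTG 131 bases before it, and TATAAA 30 bases before it and once after it. AGATAA was found in 11.2% and CACGTG in 7.15% of promoters. The Slc5a1 window held CACGTG alone, 143 bases before the start. The Lct window held TTTACNG 51 bases before the start, letters found in 9.11% of promoters, and AGATAA 101 and 90 bases before it. Of the 4 windows not printed, that of Khk held CACGTG and GTTAAT, that of Treh held CAAAGTCCA (0.475% of promoters) and GAAANNGAA (8.56%), and those of Slc2a5 and Slc2a2 held none of these letters. The interferon response core was thus matched in the Treh window only. G and C made up 34% of the Sis window, against a median of 52.7% over all promoters. A match of letters is a description and shows no binding.

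The 8 genes fell into 3 tiers of level. The unit is the scaled count, that is, reads per gene after division by a size factor that evens out library depth and after removal of the 1 that the authors had added. To compare genes it was divided by the length of the longest annotated transcript. Sis (ENSMUSG00000027790) had 6538 ± 1936 scaled counts per kb (SD, n = 9 libraries of all groups), Slc5a1 (ENSMUSG00000011034) 6199 ± 935 and Mgam (ENSMUSG00000068587) 5488 ± 913. Their ranges over the libraries overlapped, so these neighbours in the order did not differ beyond their spread. By mean scaled count they ranked 21st, 41st and 23rd among the 19360 genes. The middle tier held Khk (ENSMUSG00000029162) at 417 ± 77.8 scaled counts per kb, Treh (ENSMUSG00000032098) at 353 ± 104 and Slc2a5 (ENSMUSG00000028976) at 159 ± 56.0, again with overlapping neighbours. The highest library of Khk reached 529 per kb and the lowest library of Mgam 4442, so that the first and second tiers were well apart. Slc2a2 (ENSMUSG00000027690) followed at 9.71 ± 13.5 scaled counts per kb, with 41.2 in its highest library against 86.9 in the lowest library of Slc2a5. Lct (ENSMUSG00000026354) came last at 0.396 ± 0.590 per kb, and its range of 0 to 1.93 overlapped with that of Slc2a2.

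**Figure D1:**
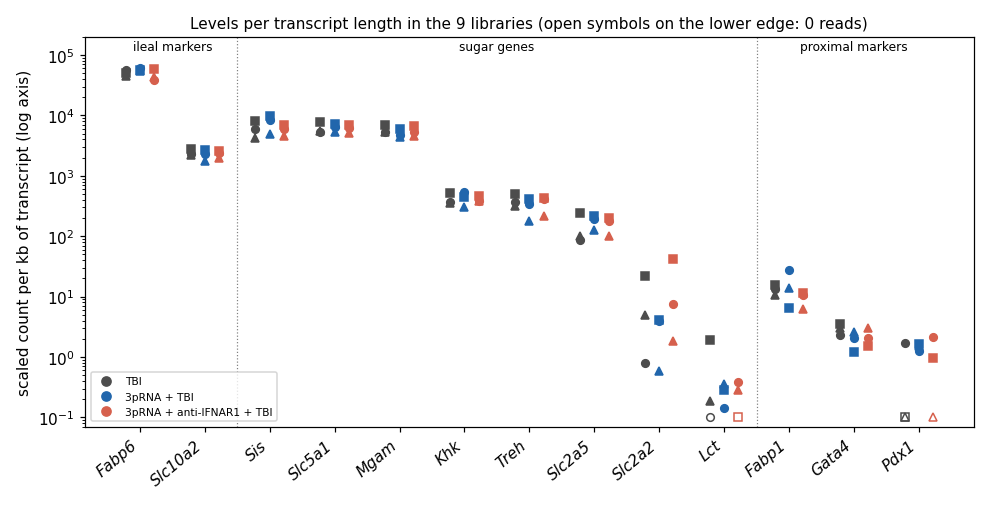
Scaled count per kb of transcript on a log axis for 2 ileal markers, the 8 sugar genes and 3 proximal markers, with 1 point per library (colour: group; circle, square and triangle: replicates 1, 2 and 3). Sis, Slc5a1 and Mgam lie between 4278 and 9817 per kb in all libraries, and Lct lies at or below 1.93.

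Some markers of gut region stood far apart in the same libraries. Fabp6, an ileal bile acid binding protein, had 51341 ± 7748 scaled counts per kb and Slc10a2, the ileal bile acid transporter, 2340 ± 330 (SD, n = 9). The proximal genes Fabp1, a fatty acid binding protein, Gata4, a transcription factor absent from the ileum, and Pdx1, a duodenal transcription factor, had 12.8 ± 6.29, 2.39 ± 0.745 and 1.03 ± 0.837 per kb. In raw terms Fabp1, Gata4 and Pdx1 had 63, 67 and 23 reads in all 9 libraries together. The rest of both lists was mixed. Of the 10 proximal markers in the table, S100g, a calcium binding protein, Slc40a1 and Sct, the secretin gene, were well above 0. They had 493 to 3905, 396 to 955 and 279.8 to 379.7 scaled counts per library, not divided by length. Of the 10 distal markers Fgf15, an ileal hormone gene, was low at 28.9 to 187. The markers shown therefore describe the pieces and do not settle the stretch taken. None of the 20 villus enterocyte markers was at 0 in any library.

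Depth differed between libraries and limits the low genes. The libraries held 6487053 to 19946586 reads in genes. Sis, Mgam and Slc5a1 had 366232, 318603 and 228518 reads in all libraries together, Treh, Khk and Slc2a5 between 4539 and 6557, Slc2a2 432 and Lct 17. A near copy adds uncertainty for Mgam, since the pseudogene Mgam2-ps had 616 to 1997 reads per library and counting could split reads between them. Exons of Treh overlap those of Phldb1 on the other strand, and the library kit does not mark strand. Phldb1 had 133 to 226 scaled counts per library, against 368 to 1039 for Treh.

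Sis and Mgam were far more abundant than the other hydrolase transcripts. Sis had 35515, 47610 and 25466 scaled counts in TBI replicates 1, 2 and 3, 50810, 58442 and 28757 with 3pRNA + TBI, and 35033, 41820 and 26858 under blockade. The 2 highest libraries were 3pRNA + TBI replicates 1 and 2, while replicate 3 of that group lay within the TBI range. Mgam had 34449, 45776 and 34229 in TBI, 30873, 39067 and 28817 with 3pRNA + TBI, and 34739, 43030 and 29461 under blockade. The groups of Mgam overlapped, and its highest library was in TBI. Treh had 759, 1039 and 652 scaled counts in TBI, 696, 835 and 368 with 3pRNA + TBI, and 854, 868 and 437 under blockade. The lowest 2 libraries of Treh were replicate 3 of the groups given 3pRNA.

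Lct was close to the limit of detection. It had 0, 7 and 1 reads in TBI, 1, 3 and 2 with 3pRNA + TBI, and 2, 0 and 1 under blockade. The highest library, TBI replicate 2, thus had 11.9 scaled counts. A count of 0 reads allows up to 3 reads, which is 2.18 scaled counts in TBI replicate 1 and 3.13 in blockade replicate 2, for counting error only. No difference of Lct between the groups was detectable at this depth.

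The highest library of the sodium-coupled glucose transporter Slc5a1 was 1.501 times its lowest. It had 21691, 31577 and 22978 scaled counts in TBI, 26424, 29196 and 21596 with 3pRNA + TBI, and 25777, 28708 and 21031 under blockade. The fructose transporter Slc2a5 had 274, 754 and 321 in TBI, 611, 672 and 404 with 3pRNA + TBI, and 555, 622 and 316 under blockade. TBI replicate 2 held the highest value of both transporters, and TBI replicate 1 the lowest value of Slc2a5. Slc2a2 was the most variable gene of the set, with 4.37, 124 and 27.8 scaled counts in TBI, 22.3, 23.1 and 3.29 with 3pRNA + TBI, and 42.3, 229 and 10.4 under blockade. Its values rest on 6, 73 and 24 reads in TBI, 25, 39 and 3 with 3pRNA + TBI and 36, 220 and 6 under blockade. Within groups the SD of its log2 level was 1.99, larger than that of 99.8% of the genes tested. Khk, downstream of GLUT5, had 589, 830 and 560 scaled counts in TBI, 837, 697 and 486 with 3pRNA + TBI, and 598, 745 and 604 under blockade. Its groups overlapped throughout.

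**Figure D2:**
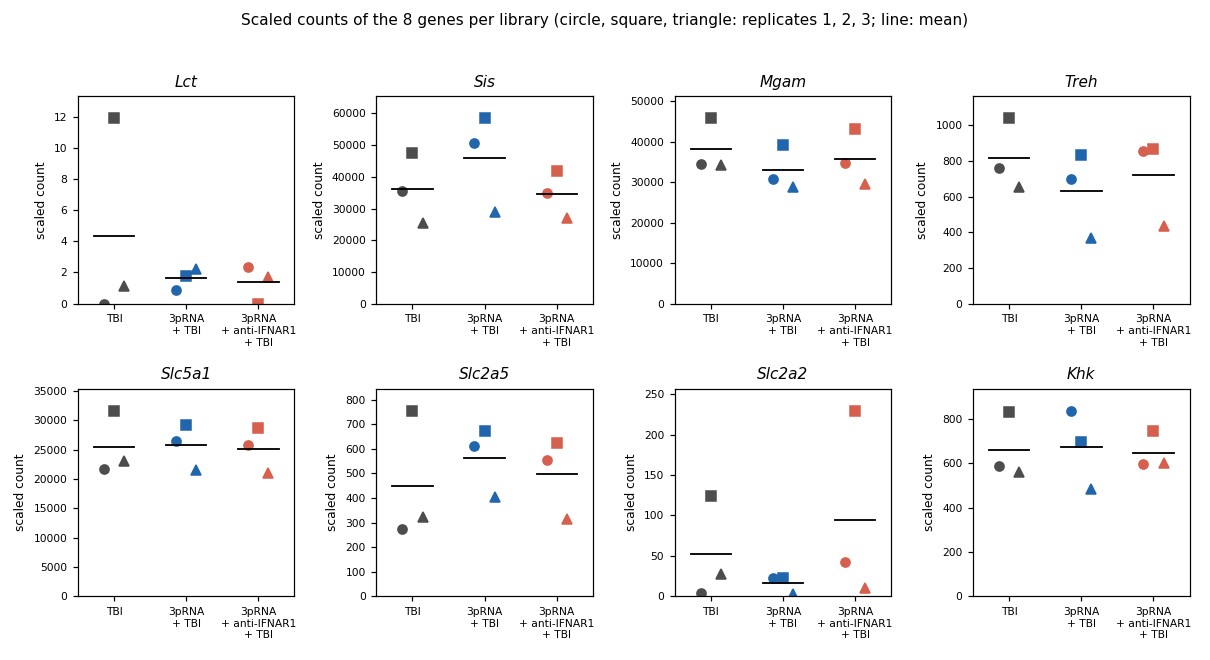
Scaled counts of the 8 genes in each library by group, on linear axes from 0, with circle, square and triangle for replicates 1, 2 and 3 and a line at the group mean. The groups overlap for every gene, and the square of replicate 2 is the highest or second highest point in most panels.

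The 7 genes tested rose and fell together from library to library. Within TBI, replicate 2 had the highest value of 7 of 7 genes, within 3pRNA + TBI replicate 2 had that of 6 of 7, Khk being the exception, and within blockade replicate 2 had that of 7 of 7. Replicate 3 was lowest for 4 of 7 genes in TBI, 7 of 7 with 3pRNA + TBI and 6 of 7 under blockade. This order was not particular to the set. The mean log2 level of 20 villus enterocyte markers was likewise highest in replicate 2 and lowest in replicate 3 of each group. These means were 14.42 and 14.04 in TBI, 14.04 and 13.66 with 3pRNA + TBI, and 14.09 and 13.98 under blockade. The labels do not say that a replicate number stands for a shared cage, day or batch. All 21 pairs of the 7 genes had a positive Pearson's r over the 9 libraries on the log2(scaled count + 1) scale, with a median of 0.74, the lowest being 0.42 for Sis with Slc2a2 and the highest 0.93 for Slc5a1 with Slc2a5. Spearman's rho was between 0.25 for Sis with Slc2a2 and 0.97 for Mgam with Treh. These correlations describe libraries that share depth, scaling and tissue piece, and are given without p. In 4 of the 7 genes, Sis, Treh, Slc2a5 and Slc2a2, the SD within groups was larger than that of at least 87.9% of all genes tested, at 0.45, 0.52, 0.59 and 1.99 on the log2 scale, against a median of 0.17 over all genes. Differences between group means made up 0.178% (Khk) to 17.8% (Slc2a2) of the sum of squares of each gene, against a median of 33.5% over all genes tested. With 3 libraries per group, spread within groups alone also yields such a share, so it shows no effect of group.

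Markers of other cells moved with the same libraries. The mean of 10 immune cell markers on the log2 scale was 7.33, 6.72 and 8.27 in TBI, 7.86, 6.84 and 8.10 with 3pRNA + TBI, and 7.92, 6.76 and 7.87 under blockade. Replicate 2 was thus the lowest library of each group in immune markers, where it was the highest in at least 6 of 7 sugar genes. Over the 9 libraries r with this mean was negative for all 7 genes, from -0.85 for Mgam to -0.56 for Slc2a2. Ms4a1, which encodes the B cell protein CD20 and was chosen after its values were seen, had 0, 8.29 and 1.04 scaled counts in replicate 2 of the TBI, 3pRNA + TBI and blockade groups and 6.55 to 125 in the other libraries. With the mean of 11 brush border peptidase and phosphatase genes r was positive for all 7, from 0.57 for Slc2a5 to 0.92 for Treh. With the mean of 19 villus enterocyte markers, which is subtracted from each gene further below, r was positive but lower for each. It was 0.33 for Slc2a5, 0.39 for Sis and at most 0.81, for Treh. The part of immune tissue in the spread of the sugar genes was not tested. In bulk tissue, fewer enterocytes and less RNA per enterocyte cannot be told apart.

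**Figure D3:**
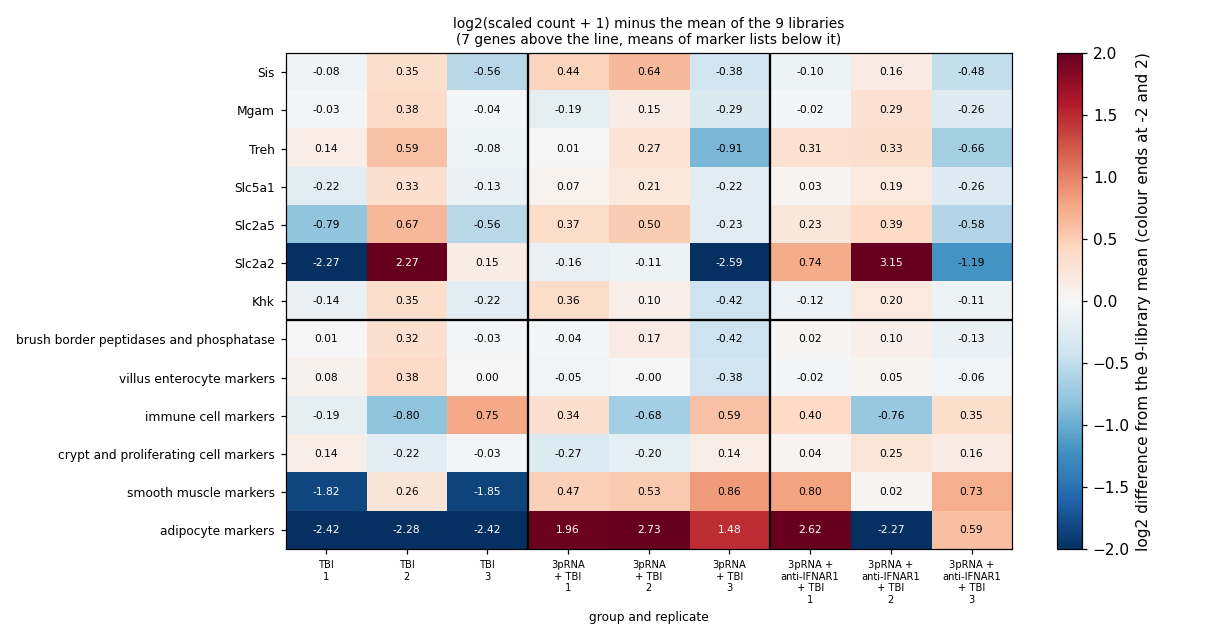
Log2(scaled count + 1) of 7 genes and of the means of 6 marker lists in each library, minus the mean of the 9 libraries (red above, blue below). Replicate 2 of each group is above the mean in 6 or 7 of the 7 genes and below it in immune markers, and adipocyte markers are low in the TBI libraries and blockade replicate 2.

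No gene of the set passed the test between groups. The first comparison asks what 3pRNA changes in irradiated gut. In limma, fitted to log2(scaled count + 1) with p adjusted by Benjamini-Hochberg over 14199 genes, 0 of the 7 genes tested were called between 3pRNA + TBI and TBI at an adjusted p under 0.05, where 5.59% of all genes were, and 0 of 7 had an unadjusted p under 0.05, as 3157 of the 14199 genes had. The groups of 3 overlapped in each of the 7 genes, whereas 25.2% of all genes had groups that did not overlap. The log2 difference was 0.33 for Sis (95% interval -0.32 to 0.98), -0.21 for Mgam (-0.63 to 0.20) and -0.42 for Treh (-1.14 to 0.30). Among the transporters it was 0.03 for Slc5a1 (-0.37 to 0.43), 0.44 for Slc2a5 (-0.37 to 1.24) and -1.002 for Slc2a2 (-3.73 to 1.72), and for Khk it was 0.02 (-0.42 to 0.45). Adjusted p lay between 0.492 for Treh and 0.971 for Khk. With the scaling of the authors the intervals of Mgam, Slc5a1 and Khk did not reach a change of 1 on the log2 scale. That of Sis ended just short of 1, at 0.98. These intervals are not adjusted for the number of genes and concern bulk tissue. A change per enterocyte was not tested. The interval of Slc2a2 would hold changes well beyond 1 in either direction.

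The second comparison asks what blockade of the interferon receptor changes in mice given 3pRNA. Between blockade and 3pRNA + TBI 0 of 7 genes were called, against 1.42% of all genes, 0 of 7 had an unadjusted p under 0.05, as 1502 of 14199 genes had, and none of the 7 had groups that did not overlap, against 15.5% of all genes. The log2 difference was -0.37 for Sis (-1.03 to 0.28), 0.11 for Mgam (-0.30 to 0.53), 0.20 for Treh (-0.52 to 0.92), -0.03 for Slc5a1 (-0.43 to 0.37), -0.20 for Slc2a5 (-1.01 to 0.61), 1.85 for Slc2a2 (-0.87 to 4.58) and -0.03 for Khk (-0.46 to 0.41). Slc2a2 had the smallest p of the set, with an adjusted p of 0.677 from limma. Its mean difference rests largely on blockade replicate 2, with 220 reads, and was 0.73 without that library. Between blockade and TBI 0 of 7 were called and 0 of 7 had an unadjusted p under 0.05, where limma called 0% of all genes and 1753 of 14199 had an unadjusted p under 0.05. None of the 7 had groups that did not overlap there, against 19.1% of all genes. The log2 differences were -0.04 for Sis, -0.10 for Mgam, -0.22 for Treh, -0.01 for Slc5a1, 0.24 for Slc2a5, 0.85 for Slc2a2 and -0.01 for Khk, with adjusted p between 0.816 and 0.996. The first and second comparisons share the 3pRNA + TBI libraries, and the first and last the TBI libraries.

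**Figure D4:**
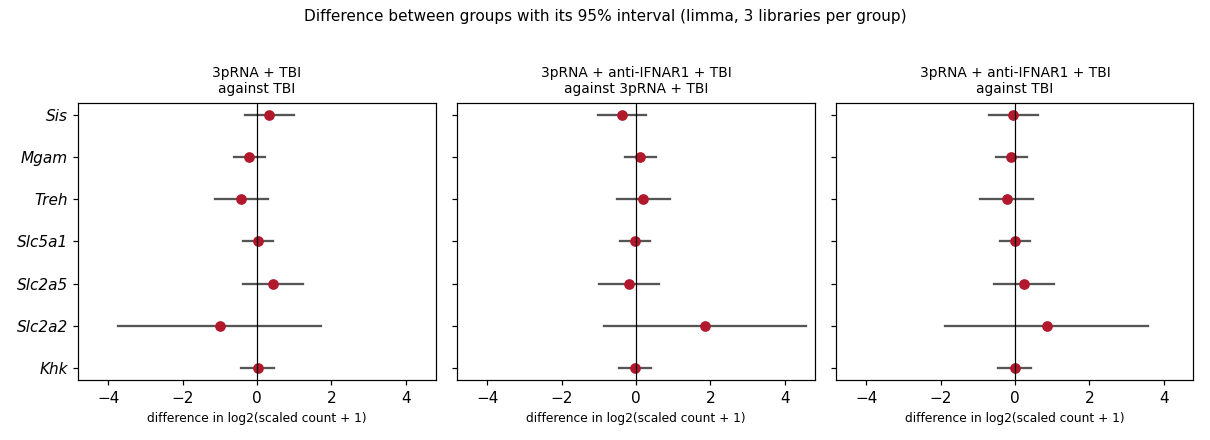
Difference in log2(scaled count + 1) between groups for the 7 genes tested (point) with its 95% interval from limma (line), in 3 panels for the 3 comparisons. Every interval contains 0, and that of Slc2a2 is the widest, from -3.73 to 1.72 in the first panel.

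As 1 value per library, the mean log2 level over the 4 hydrolases was 9.94, 11.18 and 10.04 in TBI, 10.23, 10.57 and 9.96 with 3pRNA + TBI, and 10.42, 10.13 and 9.94 under blockade. Lct enters this mean with 0 to 7 reads, so a few reads move it. It differed by -0.14 between 3pRNA + TBI and TBI, by -0.09 between blockade and 3pRNA + TBI and by -0.22 between blockade and TBI (two-sided exact permutation test, p = 0.90, 0.70 and 0.90, with 0.10 the smallest p that 3 mice against 3 allow).

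Set against other villus genes, the 3pRNA + TBI and TBI libraries did not overlap for Sis and Slc5a1, nor for 35.5% of all genes tested. For this the mean log2 level of 19 of the 20 villus enterocyte markers was subtracted from each gene in each library. Sis then stood at 0.98, 1.11 and 0.58 in TBI, 1.65, 1.80 and 1.14 with 3pRNA + TBI, and 1.07, 1.26 and 0.71 under blockade. Every 3pRNA + TBI library was above every TBI library, a difference of 0.64. Slc5a1 stood at 0.27, 0.52 and 0.43 in TBI, 0.71, 0.80 and 0.73 with 3pRNA + TBI, and 0.62, 0.72 and 0.36 under blockade, and again the first 2 groups did not overlap, with a difference of 0.34. Each had p = 0.10 in a two-sided exact permutation test, the smallest p possible. The adjusted p was 0.738 over the 24 such tests of 8 genes and 3 comparisons. With 3 mice against 3 no adjusted p under 0.05 was possible, so this test could not decide. With brush border peptidases in place of the villus markers the differences were 0.53 for Sis and 0.22 for Slc5a1 (exact permutation p = 0.10 for each). The median of all genes moved up by 0.308 with the same subtraction, close to the difference of Slc5a1. Without the subtraction Slc5a1 differed by 0.03. In limma on values centred in this way 1 of 7 genes was called, Sis (log2 difference 0.64, standard error 0.19, adjusted p = 0.0436), beside 11.9% of all genes, and Slc5a1 had an adjusted p of 0.0567. Sis was called under this scaling only, and with the scaling of the authors its adjusted p was 0.562.

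**Figure D5:**
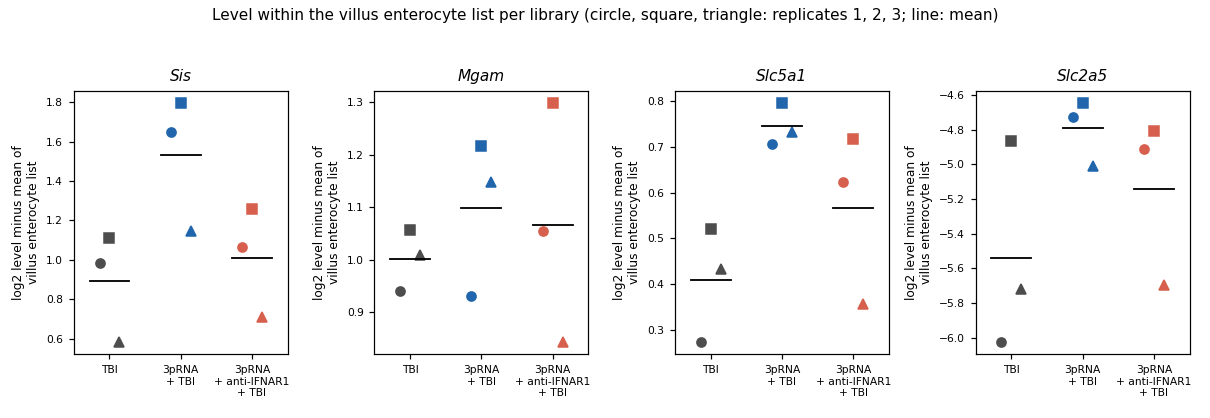
Log2 level of Sis, Mgam, Slc5a1 and Slc2a5 minus the mean of 19 villus enterocyte markers in each library, with circle, square and triangle for replicates 1, 2 and 3 and a line at the group mean. For Sis the 3pRNA + TBI points lie between 1.14 and 1.80 and the TBI points between 0.58 and 1.11, while the groups overlap for Mgam. After this subtraction these 2 groups did not overlap in 35.5% of all genes tested.

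The other genes gave no such separation. Relative to the villus markers Mgam differed by 0.10 between 3pRNA + TBI and TBI, Treh by -0.11, Slc2a5 by 0.75, Khk by 0.32, Slc2a2 by -0.69 and Lct by 0.06, with exact permutation p between 0.20 and 1. Between blockade and 3pRNA + TBI Sis differed by -0.52 and Slc5a1 by -0.18 (exact permutation p = 0.20 for each), and between blockade and TBI by 0.12 and 0.16 (exact permutation p = 0.60 and 0.30). The ratio of Sis to Mgam, chosen after its values were seen and so given without a test, was 1.03, 1.04 and 0.74 in TBI, 1.65, 1.496 and 0.998 with 3pRNA + TBI, and 1.01, 0.97 and 0.91 under blockade. The ratio was highest in 3pRNA + TBI replicates 1 and 2, while replicate 3 of that group lay within the range of TBI.

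Of 22 enzymes of fructose and glucose handling, which act after uptake, 0 were higher and 1 was lower in 3pRNA + TBI than in TBI. Limma called 5.59% of all genes in this comparison, 494 higher and 300 lower of 14199. The median log2 difference of the enzymes was -0.16 against -0.02 over all genes. The enzyme called was Pkm, a pyruvate kinase, with 4606, 4953 and 4731 scaled counts in TBI and 3589, 3639 and 3974 with 3pRNA + TBI (log2 difference -0.35, adjusted p = 0.0303 from limma). G6pc, the glucose-6-phosphatase that frees glucose in gluconeogenesis, had 221, 681 and 295 in TBI, 184, 133 and 31.8 with 3pRNA + TBI, and 109, 290 and 69.0 under blockade. Its 3pRNA + TBI libraries were all below those of TBI, at a log2 difference of -1.93 that did not pass the test (adjusted p = 0.117 from limma). Groups that did not overlap were found in 25.2% of all genes tested. Gaa, the lysosomal glucosidase, and Pfkl, a phosphofructokinase, differed by 0.34 and -0.25 (adjusted p = 0.120 and 0.152 from limma). In the blockade comparisons 0 of the 22 enzymes were called, with 2 and 4 at an unadjusted p under 0.05 against 3pRNA + TBI and TBI. Of all 14199 genes 1502 and 1753 had such a p.

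Of 17 other hexose transporters 14 were tested. Beside 5.59% of all genes called, 1 of the 14 was higher in 3pRNA + TBI and 0 were lower. It was Slc2a4, the insulin-responsive GLUT4 of muscle and fat, with 13.8, 64.5 and 10.4 scaled counts in TBI, 128, 122 and 126 with 3pRNA + TBI, and 120, 62.5 and 102 under blockade (log2 difference 2.502, adjusted p = 0.0272 from limma). Slc2a4 moved with the markers of smooth muscle and fat given below, and their part in it was not tested. Slc50a1, a sugar efflux transporter, Slc2a3, the GLUT3 of neurons and leukocytes, and Slc5a11, an inositol transporter, differed by 0.26, 0.74 and -0.54 (adjusted p = 0.154, 0.156 and 0.369 from limma). Slc2a9, a urate transporter of the GLUT family, stood at 365 ± 60.4 scaled counts per kb, more than Slc2a5, and Slc2a1, the widespread GLUT1, at 87.7 ± 8.98. Slc2a7, a close relative of GLUT5, stood at 9.28 ± 3.17 per kb. In the blockade comparisons 0 of 14 were called, with 1 and 2 at an unadjusted p under 0.05 against 3pRNA + TBI and TBI. Such a p was found for 1502 and 1753 of all 14199 genes.

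Of 21 tested transcription factors and sensors of sugar genes, 0 were higher and 1 was lower with 3pRNA, at a median log2 difference of -0.19. The share called of all genes was 5.59%. Klf5, a factor of crypt and villus epithelium, had 2935, 2880 and 2740 scaled counts in TBI, 2221, 2542 and 2134 with 3pRNA + TBI, and 2618, 2802 and 2685 under blockade (log2 difference -0.31, adjusted p = 0.0477 from limma). Foxa3, Foxa2 and Gata6, factors of gut endoderm, differed by -0.33, -0.67 and -0.29 (adjusted p = 0.0575, 0.0753 and 0.0904 from limma). Foxa3 had 244, 246 and 242 scaled counts in TBI, 206, 179 and 199 with 3pRNA + TBI, and 207, 221 and 221 under blockade, and Foxa2 had 46.6, 56.0 and 38.3, then 25.8, 31.4 and 29.6, then 51.8, 57.3 and 46.6. For both, the 3pRNA + TBI libraries lay below every TBI library without passing the test. These 2 groups did not overlap in 25.2% of all genes tested, counting both directions. Cdx2, named for its role at the Sis promoter, differed by -0.21 (adjusted p = 0.227 from limma). In each blockade comparison 0 of 21 were called, with 4 and 2 at an unadjusted p under 0.05 against 3pRNA + TBI and TBI. All 14199 genes held 1502 and 1753 at such a p. Of 11 brush border peptidase and phosphatase genes 0 were called between 3pRNA + TBI and TBI, with 2 at an unadjusted p under 0.05 and a median of -0.12. Of all 14199 genes 3157 had such a p. The smallest p among the 11 was that of Alpi, the intestinal alkaline phosphatase (log2 difference -0.66, adjusted p = 0.0527 from limma), followed by Mep1a, a meprin subunit (-0.41, adjusted p = 0.206).

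The markers of cell types and gut regions moved as follows between 3pRNA + TBI and TBI. Of all 14199 genes 5.59% were called there, 494 higher and 300 lower, and 3157 had an unadjusted p under 0.05. Of 20 villus enterocyte markers 1 was lower, the retinol binding protein gene Rbp2 (log2 difference -0.49), at a median of -0.14. Of 7 tested proximal markers 1 was lower, the iron exporter gene Slc40a1 (-0.96), and of 10 distal markers 0 were called, with 2 at an unadjusted p under 0.05. Of 10 crypt markers Smoc2 (0.66) alone was called, as higher, while only 2 of the 10 had a difference above 0, at a median of -0.125. Lyz1 (-0.64) and Spink4 (-0.72) were lower among 7 Paneth and 7 goblet cell markers, with medians of -0.34 and -0.20. Of 10 immune markers Cd3e (-0.90) and Cd8a (-0.93), both of T cells, were lower, while 7 of the 10 had a difference above 0. The median of that list was 0.145. Of 11 smooth muscle markers 5 were higher, of 9 tested markers of enteric neurons and glia 6, and of 8 adipocyte markers 6, with medians of 1.88, 1.86 and 4.47. The smooth muscle mean ran from 7.56 to 9.67 in TBI, from 9.88 to 10.27 with 3pRNA + TBI and from 9.43 to 10.21 under blockade, with TBI replicates 1 and 3 at 7.59 and 7.56. Of the 8 adipocyte markers 5 were at 0 in each TBI library, Adipoq among them. Among exocrine pancreas and hepatocyte markers 1 and 4 were tested and 0 were called, with 0 and 3 at an unadjusted p under 0.05. Under blockade only Spink4 was called against 3pRNA + TBI (higher, by 0.74), and no gene of any list against TBI. The shares called of all genes were 1.42% and 0%.

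Over the 14199 genes tested, the patterns most like those of single members were sought by Pearson's r over the 9 libraries, as a description. The nearest to Sis were Dgka (0.97), a diacylglycerol kinase, Gdpd2 (0.97) and the carboxylesterase Ces2c (0.97). Those nearest to Slc5a1 were Slc13a2 (0.97), the brush border citrate transporter, Atg14 (0.97), an autophagy factor, and Slc6a19 (0.96), the brush border carrier of neutral amino acids. Khk was nearest to Zfyve21 (0.97), Zfp944 (0.95) and Sptssa (0.95), and Slc2a5 to Tnfrsf21 (0.97), C330006A16Rik (0.96) and Tesk2 (0.95). Genes near to Slc2a2, Gm16536 (0.95) and Ago4 (0.92), and those of Lct, Mta1 (0.92), Ppp2r2c (0.91) and Dmxl2 (0.91), follow patterns that rest on few reads, for Lct mainly the 7 reads of TBI replicate 2.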

How the data were processed

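Poly(A) RNA of small intestine from 9 mice was sequenced on a HiSeq2500 after TruSeq preparation. The authors aligned reads by a 2-pass STAR run, obtained HTSeq gene counts and scaled these to library size factors. The build named is mm9, and for versions, gene models and strand setting the sources used here give nothing. The deposited signal is this scaled count with 1 added by the authors. Columns of the authors' own comparisons were not used. The antibody route is intravenous in the labels and intraperitoneal in the general methods.

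From each value 1 was subtracted. All values were then whole multiples, within 0.02, of the worth of 1 read in that library, which gave the reads quoted. Genes whose mean reached 10 scaled counts (14199 of 19360) were fitted with limma 3.58.1 in R 4.3.3 as log2(scaled count + 1), with a pseudocount of 1, a variance trend and all 9 libraries. This scale understates changes of low genes. P was adjusted by Benjamini-Hochberg within each comparison, at a threshold of 0.05, and single values were compared by exact permutation in SciPy 1.17.1. The fit was tested on simulated data. Transcript lengths are of GENCODE vM21. Replicates are separate mice by the study's methods, and no pair of libraries within a group agreed within counting noise. The members and the 19 gene lists (195 of 205 entries matched) were chosen with earlier results of these data known. The genes named are the 8 members, up to 4 genes per list by smallest p and those of the 3 nearest in pattern that could be given, some items not being reported here; others were chosen by role or after their values were seen. Other pseudocounts, filters, scalings and fits, and leaving out libraries, were tried.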

Additional observations from a re-analysis of the deposited data

How the results depend on the processing

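No member was called with another pseudocount, another filter, no variance trend, a fit of the compared groups alone, equal library totals or any single library left out. With the values centred on the villus markers 1 was called, Sis in 3pRNA + TBI against TBI. Under alternatives other than leaving out 1 library, 193 differences of members kept their direction and call, 16 turned and 1 became a call; with 1 library left out 159 kept and 30 turned. In 3pRNA + TBI against TBI the sign turned without TBI replicates 1 and 3 for Sis (-0.1126), Slc5a1 (-0.3061), Slc2a5 (-0.456) and Khk (-0.337), and with villus centring for Mgam (0.09615). The TBI library left, replicate 2, was the highest of its group for all 7 members, so that setting moves each difference down by its construction, and the lone library is assumed to vary like the other groups. In blockade against 3pRNA + TBI it turned with villus centring for Mgam (-0.03252). In blockade against TBI it turned without TBI replicates 1 and 3 for Slc2a5 (-0.6566) and Slc2a2 (-1.368), with villus centring for Sis (0.1182), Mgam (0.06364), Slc5a1 (0.1561) and Khk (0.1523), and with equal totals for Sis (0.05984), Mgam (0.005322), Slc5a1 (0.0978) and Khk (0.09381). With peptidases in place of villus markers the relative difference turned for Mgam (-0.01555 in the first comparison, 0.02282 in the second) and Lct (-0.04767 in the first). The cause was not tested, but for the scalings the median of all genes moved by 0.308, -0.146 and 0.161 with villus centring and by 0.113, -0.0107 and 0.103 with equal totals in the 3 comparisons. The genes called in the first comparison, 794 with 494 higher, became 1684 with 1643 higher and 979 with 804 higher.

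Leaving out 1 library gave these ranges where the sign turned. In 3pRNA + TBI against TBI they were -0.07676 to 0.1941 for Slc5a1, -2.164 to 0.107 for Slc2a2 and -0.1578 to 0.2336 for Khk. In blockade against 3pRNA + TBI they were -0.02874 to 0.2445 for Mgam, -0.1512 to 0.5252 for Treh, -0.1538 to 0.09098 for Slc5a1, -0.4222 to 0.09744 for Slc2a5 and -0.2429 to 0.1486 for Khk. In blockade against TBI they were -0.2737 to 0.1776 for Sis, -0.2404 to 0.04039 for Mgam, -0.3911 to 0.104 for Treh, -0.1095 to 0.1614 for Slc5a1, -0.04271 to 0.6849 for Slc2a5, -0.3108 to 1.96 for Slc2a2 and -0.1158 to 0.1675 for Khk. Without turning, the first comparison ran from 0.09884 to 0.6366 for Sis, -0.3414 to -0.07342 for Mgam, -0.6619 to -0.07083 for Treh and 0.1579 to 0.8855 for Slc2a5, and the second from -0.68 to -0.1684 for Sis and 0.7276 to 2.899 for Slc2a2. The mean of the 4 hydrolases ran from -0.3609 to 0.2608, -0.2348 to 0.07046 and -0.4488 to 0.1729 in the 3 comparisons. Relative to villus markers the first comparison ran from -0.2837 to 0.1226 for Treh, -1.82 to 0.3036 for Slc2a2 and -0.6997 to 0.9969 for Lct, and blockade against TBI from -0.03716 to 0.2693 for Sis, all turning, while Sis and Slc5a1 in the first comparison kept their sign (0.4817 to 0.8301 and 0.2672 to 0.3907).

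The same replicate numbers recur in the groups, and deviations of same-numbered libraries correlated at -0.193 to 0.345. For replicates 2 and 3 the same-numbered library was the best match in every pair of groups. For replicate 1 it was so only between 3pRNA + TBI and blockade. A shared factor behind the numbers is thus not excluded. The labels do not say that they pair the mice, so the main fit held no block. A fit with the replicate block called 0 members in each comparison, and 1223, 281 and 1 of all genes. The smallest adjusted p of a member in that limma fit was 0.081, for Treh in 3pRNA + TBI against TBI. In the main limma fit it was 0.492 for Treh. Count models and their normalizations were planned and not run. Depth limits Slc2a2, with 3 reads in its lowest library, and Lct, with 17 reads in all.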
